A study of Bos taurus with 30 samples.

Results

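Blood of the same heifers was compared between the coccygeal vein, which runs along the underside of the tail, and the jugular vein of the neck. The comparison held 10 libraries of peripheral white blood cells (PWBCs), 5 from each vein, and all of them were processed 1 h after the blood was drawn. Every gene with at least 1 count in any of the 10 libraries was taken, which gave 22529 of the 27607 genes in the table. Of these, 13302 genes (59.0%) exceeded a CPM of 1 in no fewer than 5 of the 10 libraries, where CPM is the count of a gene scaled to the total count of its library. The other 9227 genes did not reach this level and were analysed separately. The table holds Ensembl identifiers, and a name was at hand for 1721 of the genes above CPM 1 (12.9%) and for 17 of the genes below it.

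The study asked whether the vein used for sampling, and the time that blood waits before processing, alter the transcripts measured in PWBCs. The 5 animals were Angus x Simmental crossbred heifers whose estrus had been synchronised with GnRH, an intravaginal progesterone device and prostaglandin F2alpha. All 5 had expressed estrus, and each gave blood from both veins at the time when artificial insemination would usually take place. Tubes with K2 EDTA were kept at 4 °C, the buffy coat was taken after centrifugation, and red cells were lysed before RNA was extracted, so that both groups shared every treatment except the vein. Each heifer, called subject A to E, gave 1 library per vein, and a further library of jugular blood kept for 24 h is used below only as a yardstick. With 1 tube per vein and subject, a difference between the veins of a subject cannot be told apart from a difference between tubes, buffy coats or libraries. Which vein was sampled before the other is not given in the sources used here.

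PWBCs are the mixture of nucleated cells that a buffy coat yields, mainly lymphocytes, monocytes and granulocytes, together with the platelets and young red cells that are carried along. Lymphocytes recognise antigens, monocytes and neutrophils engulf microbes and release cytokines such as interleukin 1, and platelets carry transcripts of adhesion and clotting proteins from the megakaryocytes that form them. Because a library reports the mixture, the share of each cell type and the transcripts per cell both set its values.

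Total counts ranged from 14631199 to 18057770 in the coccygeal libraries and from 12412619 to 19492274 in the jugular libraries. In libraries of this size a gene with 3 counts stood at 0.154 to 0.242 CPM, and this floor reflects the error of counting alone. Genes below CPM 1 took between 0.135% and 0.246% of the counts of a library, and the highest share belonged to coccygeal blood of subject B. The number of genes that passed the CPM filter through the libraries of a single vein was 0. Near the filter, 139 genes had a CPM above 1 in exactly 5 libraries and 178 in exactly 4.

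The markers of white blood cells were found in every library. Summed over their named genes, markers of T cells took 1397 to 2431 CPM in coccygeal and 1395 to 2058 CPM in jugular libraries. Markers of B cells took 1391 to 1601.5 and 1420.3 to 1665 CPM, and those of monocytes and macrophages 739 to 1368 and 979 to 1358 CPM. Markers of neutrophils, most of which sink into the red cell layer and not into the buffy coat, took 102 to 666 CPM in coccygeal and 74.7 to 923 CPM in jugular libraries. The platelet list took 719 to 1360.4 and 706 to 958 CPM, and the 4 erythroid genes with a name 20.3 to 67.1 and 23.5 to 43.5 CPM. The haemoglobin genes were not among the genes with a name, so that the red cell content could be judged from these 4 genes only, and a single named gene, PKP2, stood for skin.

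Between the veins, 0 of the 13302 genes above CPM 1 differed in abundance (0% called). The call required an adjusted p, or false discovery rate (FDR), under 0.05 in both edgeR's quasi-likelihood test and DESeq2's Wald test, both with the subject as a block, and an absolute log2 fold change above 0.5. The smallest FDR was 0.9997 in edgeR and 0.99995 in DESeq2. Before adjustment 260 genes (1.95%) had a p under 0.05 in edgeR and 94 in DESeq2. If no gene differed and the tests were exact, a share of about 0.05 would lie under this level, more than was found. Of the 260, 94 were higher in coccygeal blood (0.707%) and 166 were lower (1.25%).

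How large a difference could have been missed was read from the 95% interval that limma-voom gave for the log2 difference of each gene, coccygeal minus jugular. For 13178 genes (99.1%) the whole interval lay within 1 log2 unit of 0, which is less than a 2-fold difference in either direction, and for 11354 genes (85.4%) it lay within 0.5. The precision followed the abundance. Among the 1018 genes with a mean under 2 CPM, the interval reached a median of 0.48 log2 units to each side, and 13.9% of them were within 0.5. Among the 4701 genes with a mean of 50 CPM or more it reached 0.15, and 99.1% were within 0.5. In this most abundant group the estimate farthest from 0 was 0.32 log2 units. For most genes with a mean under 2 CPM, therefore, the interval reached past 0.5 log2 units. A difference of that size could have been missed there at this depth and number of animals.

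**Figure D1:**
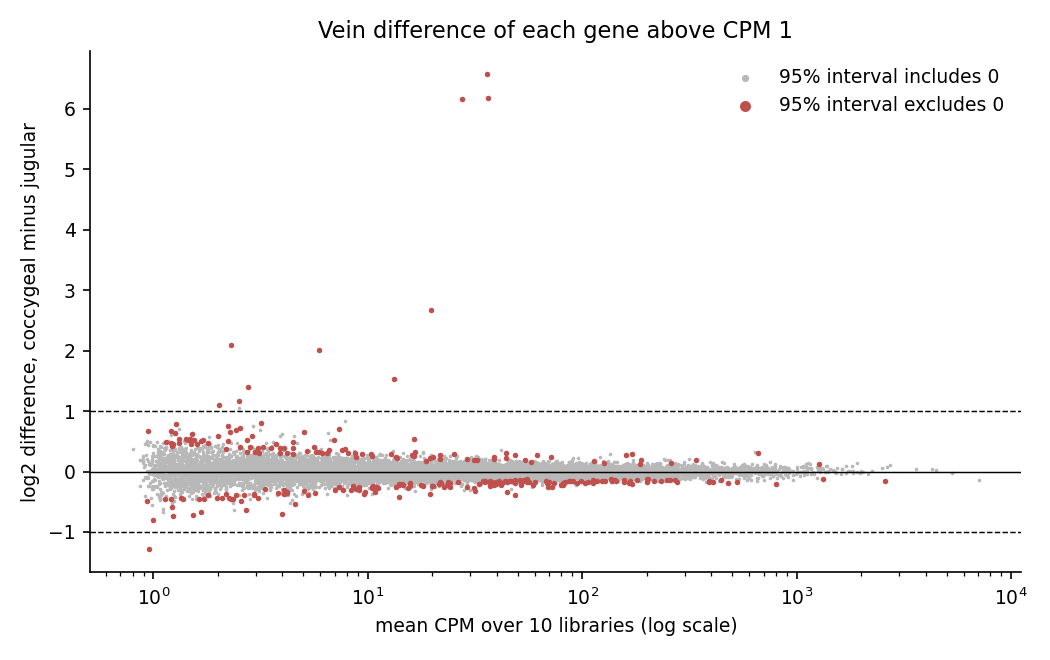
Difference between the veins for each of the 13302 genes above CPM 1, plotted as the log2 difference estimated by limma-voom (coccygeal minus jugular) against the mean CPM over 10 libraries on a log scale. Points in red are the 275 genes whose unadjusted 95% interval excludes 0, 109 of them above and 166 below, the dashed lines mark 1 log2 unit, and the cloud narrows as abundance increases.

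The 5 named genes with the highest mean CPM had log2 differences between -0.02 and 0.12 over the 5 subjects. BOLA (MHC class I heavy chain, which presents peptides to cytotoxic T cells, chromosome 23 of ARS-UCD1.2, 28720501 to 28724399) had 2847, 2473, 4059, 3363 and 1579.5 CPM in the coccygeal libraries of subjects A to E and 2348, 2619.5, 3041, 3414 and 1612 CPM in the jugular libraries. Subject E was lowest, coccygeal blood was higher by 0.28 log2 units in subject A and 0.42 in subject C, and the groups overlapped, with a log2 difference of 0.12 (95% interval -0.05 to 0.28, limma-voom). The count of BOLA is uncertain, since class I genes have near-identical copies among which fragments could have been split. HSP90AB1, a chaperone, had 962, 953, 1067, 1016 and 1146 CPM in coccygeal and 976, 981, 1062, 1054 and 1092 CPM in jugular blood, and here the pairs differed by 0.07 log2 units or less. MSN, which ties actin to the cell membrane, ETS1, a transcription factor of lymphocytes, and RPL3, a ribosomal protein, had log2 differences of -0.02, -0.02 and 0.04.

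The genes named next had the smallest edgeR p-values among the named genes above CPM 1, 5 in each direction, and none of them passed the adjustment. CRYGS, a crystallin of the eye lens, had 1.27, 3.21, 1.37, 1.73 and 0.558 CPM in the coccygeal libraries of subjects A to E and 0.667, 1.68, 0.978, 0.871 and 0.403 CPM in the jugular libraries. It was higher in coccygeal blood in 5 of 5 subjects, but the groups overlapped. SYCP3, a protein of the synaptonemal complex of meiotic chromosomes (chromosome 5, 65541083 to 65548189), had 7.29, 3.32, 6.83, 10.1 and 3.07 CPM in coccygeal and 3.23, 2.00, 4.17, 6.85 and 3.38 CPM in jugular blood. Subject E went against the other 4, and the log2 fold change was 0.64 (unadjusted p = 0.00258, FDR 0.9997, edgeR quasi-likelihood test). PDE2A, a phosphodiesterase that breaks down cyclic nucleotides, had 23.7, 21.3, 16.2, 12.3 and 18.7 CPM in coccygeal and 16.9, 15.3, 15.5, 11.5 and 13.8 CPM in jugular blood, higher in 5 of 5 subjects by 0.07 to 0.48 log2 units. LGALS3, a galectin of macrophages, and HESX1, a homeobox factor, were also higher in 5 of 5 subjects, with log2 fold changes of 0.18 and 0.53 in edgeR.

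Among the genes with lower values in coccygeal blood, SLC38A1, a glutamine transporter (chromosome 5, 33940564 to 33993305), had 18.8, 30.1, 27.7, 33.8 and 30.2 CPM in the coccygeal libraries of subjects A to E. In the jugular libraries it had 28.6, 32.8, 41.0, 38.7 and 34.2 CPM. The coccygeal value was lower in 5 of 5 subjects, most in subjects A and C, with a log2 fold change of -0.33 (unadjusted p = 0.00349, FDR 0.9997, edgeR). MKI67, the Ki-67 antigen of dividing cells, had 345, 352, 516, 313 and 385 CPM in coccygeal and 402, 454, 548, 329.8 and 424 CPM in jugular blood. It too was lower in 5 of 5 subjects, by 0.08 to 0.37 log2 units, in groups that overlapped. RBPJ, the transcription factor of Notch signalling, and RALGAPB, a subunit of a Ral GTPase activator, had log2 fold changes of -0.18 and -0.19 in edgeR, with lower values in 5 of 5 subjects. FFAR2, a receptor of short-chain fatty acids on neutrophils, had a log2 fold change of -0.67 with lower values in 4 of 5 subjects.

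The same direction in all 5 subjects was found for 183 genes that were higher in coccygeal blood (1.38%) and 329 that were lower (2.47%). Were the direction random in each subject, a share of 0.0625 of genes would agree in all 5, counting both directions. Agreement in 5 of 5 subjects is therefore not in itself evidence of a difference between the veins. Groups that did not overlap were rarer, with 5 genes higher (0.0376%) and 2 lower (0.015%). Of these 7, NOL10, a nucleolar protein, was the only gene with a name, and it is named for having one. It had 44.4, 42.5, 42.1, 44.8 and 46.7 CPM in coccygeal and 40.9, 41.5, 40.9, 42.0 and 41.1 CPM in jugular blood, so that every coccygeal value was above every jugular value by a small margin. Its log2 difference was 0.09 (95% interval -0.05 to 0.23, limma-voom).

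A single gene was more than 1 log2 unit higher in coccygeal blood in all 5 subjects. This gene, ENSBTAG00000021466, which the tables used here do not name, had 19.5, 324, 2.60, 1.19 and 11.0 CPM in the coccygeal libraries of subjects A to E and 0, 0.0541, 0.261, 0.0580 and 2.26 CPM in the jugular libraries. Coccygeal blood of subject B held 90.3% of its counts over the 10 libraries, and the groups overlapped, because jugular blood of subject E exceeded coccygeal blood of subject D. The log2 fold change was 6.86 with an unadjusted p of 0.00990 and an FDR of 0.9997 in edgeR. No gene was lower by more than 1 log2 unit in all 5 subjects.

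Within single subjects the libraries of the veins differed in other ways. Log2 CPM was computed with a prior count of 2, and a gene was taken as apart when its libraries differed by more than 1 log2 unit, a description without a test since each subject gave 1 library per vein. Such genes numbered 98, 270, 222, 46 and 97 in subjects A to E. In subject B 222 of the 270 were higher in coccygeal blood, and in subject C 130 of the 222 were. Most of these genes had few counts: with a mean of at least 10 CPM there were 15, 78, 68, 4 and 4 genes in subjects A to E. The median absolute difference over all genes was 0.16, 0.11, 0.19, 0.08 and 0.14 log2 units, so that subject D had the pair closest to each other and subject B had many genes apart on top of a close match of the rest.

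**Figure D2:**
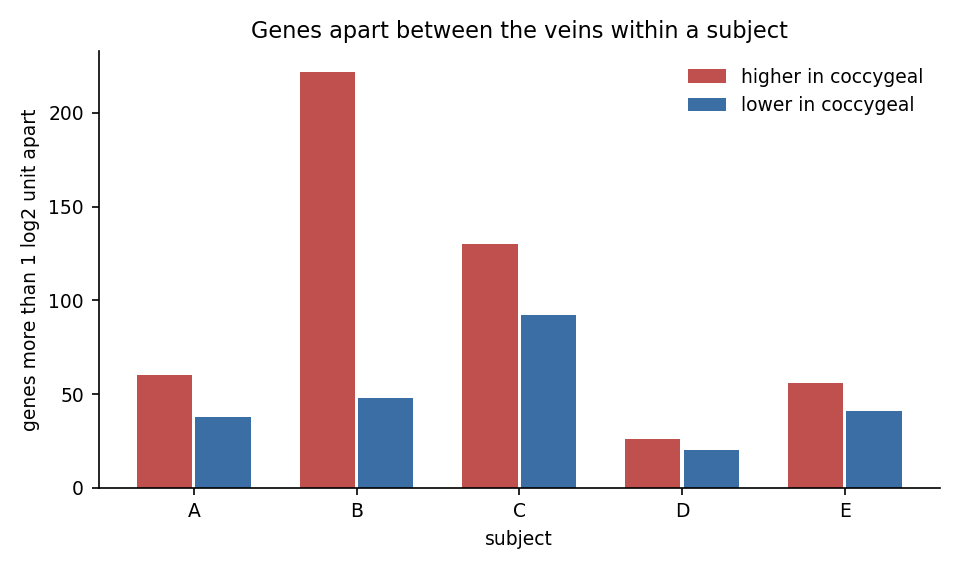
Number of genes above CPM 1 whose coccygeal and jugular libraries differed by more than 1 log2 unit, for each subject and direction. Subject B has 222 genes higher in coccygeal blood and 48 lower, subject C 130 and 92, and subject D has the fewest, 26 and 20.

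These genes were seldom shared between subjects. Over the 5 subjects 12655 genes (95.1%) were apart in none, 575 in 1, 62 in 2, 7 in 3, 2 in 4 and 1 in 5. Of the 62 genes apart in 2 subjects, 30 differed in the same direction and 32 in opposite directions. Of the 7 apart in 3 subjects, 2 had the same direction.

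The named gene that differed most in each subject was another gene each time, apart from GATA2. In subject A, GPM6A, a membrane glycoprotein, was higher in coccygeal blood by 2.05 log2 units (2.72 against 0.564 CPM), and BMX, a tyrosine kinase of myeloid cells, was lower by 1.02. In subject B, PI16, a peptidase inhibitor, was higher by 4.48 log2 units, and GATA2, a transcription factor of basophils, mast cells and progenitors, was lower by 1.66 (0.277 against 1.14 CPM). In subject C, TGM3, a transglutaminase that bovine neutrophils express, was higher by 3.67 log2 units, and P2RX7, an ATP receptor, was lower by 1.25. In subject D the differences were smaller, with TBC1D16 higher by 1.17 and KCNG1 lower by 0.89. In subject E, ACHE was higher by 1.22, and GATA2 was again the lowest, by 1.43 (2.73 against 7.57 CPM). In subject C GATA2 had 1.03 against 0.978 CPM and in subject D 1.91 against 1.68 CPM, so that its direction differed between subjects.

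The cell type and response lists held 173 genes with a name and a count, 165 of them above CPM 1, and 0 were called. An unadjusted p under 0.05 in edgeR was found for 7 of the 165 (4.24%, against 1.95% of all genes above CPM 1), 2 of them higher (LGALS3 and TLE1) and 5 lower (MKI67, FFAR2, CCR2, GZMB and PLCG2) in coccygeal blood. Both shares lie under the 0.05 that this level gives when no gene differs. For 158 of the 165 genes (95.8%) the 95% interval lay within 1 log2 unit, and 0 had groups that did not overlap. Within subjects 21 of the 165 genes (12.7%) were apart by more than 1 log2 unit in at least 1 subject, against 4.86% of all genes above CPM 1. The lists were chosen with earlier results of these data known, so that these shares are not independent of that choice. The numbers in subjects A to E were 3, 16, 5, 0 and 1, with some genes apart in more than 1 subject. In mixed cells, more cells of a type and more transcripts per cell cannot be told apart.

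**Figure D3:**
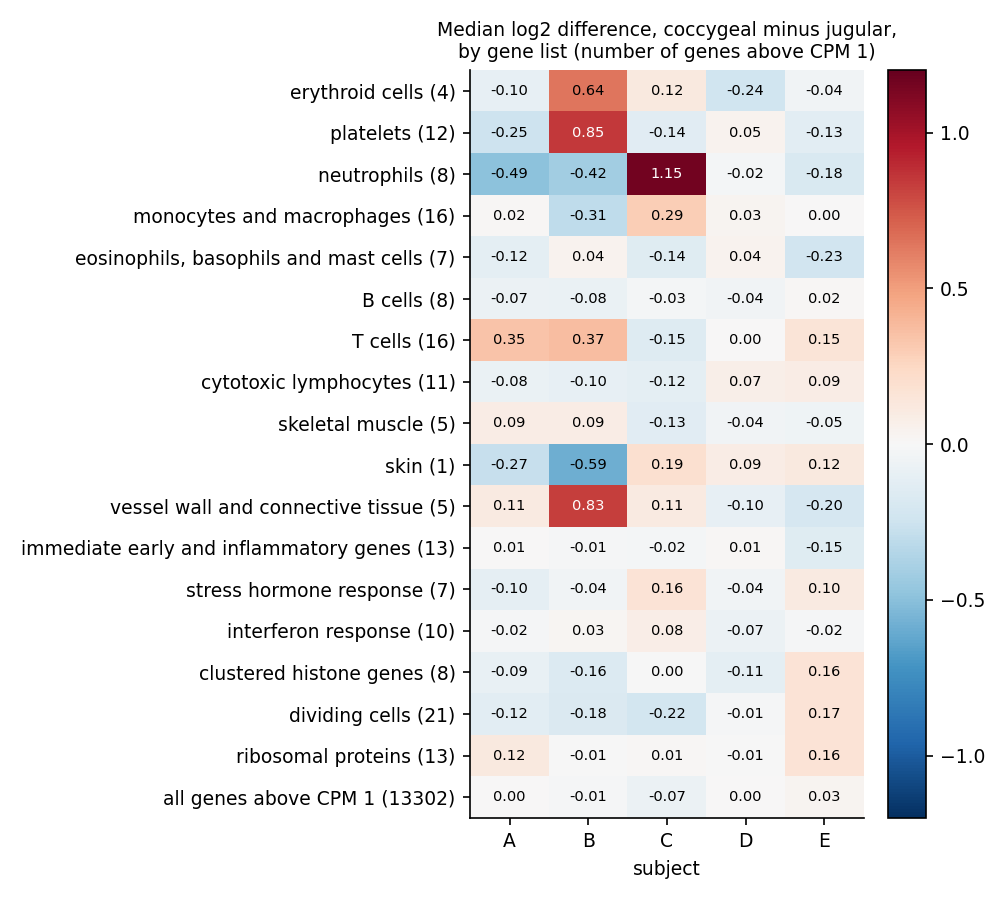
Median log2 difference, coccygeal minus jugular, of the genes of each list within each subject, with the number of genes above CPM 1 in brackets and all 13302 genes in the last row. Neutrophil genes stand out in subject C (1.15), platelet and vessel wall genes in subject B (0.85 and 0.83), and the values of subject D lie between -0.24 for erythroid genes and 0.09.

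Genes of the platelet list were mostly higher in coccygeal blood of subject B, while in the other subjects their median difference was 0.05 log2 units or less. The 12 genes of the list summed to 791, 1360.4, 719, 736 and 845 CPM in the coccygeal libraries of subjects A to E and to 958, 718, 826, 706 and 718 CPM in the jugular libraries. The median log2 difference of the list was -0.25, 0.85, -0.14, 0.05 and -0.13, where the median over all genes above CPM 1 lay between -0.07 and 0.03. In subject B 10 of the 12 genes were higher, and 4 of the 12 were apart by more than 1 log2 unit. Which cells carried these transcripts was not tested, and the vessel wall list was raised in the same library. The 4 erythroid genes, which megakaryocytes share in part, also had their highest median in subject B, at 0.64, with sums of 67.1 CPM in coccygeal and 43.5 CPM in jugular blood.

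VWF, the von Willebrand factor that tethers platelets to injured vessels (chromosome 5, 104221024 to 104345680), had 76.7, 128, 61.1, 40.6 and 60.6 CPM in coccygeal and 96.2, 51.0, 61.8, 40.8 and 72.5 CPM in jugular blood. Only subject B was higher in coccygeal blood, and in its jugular blood kept for 24 h the value was 97.5 CPM. SELP, the P-selectin that activated platelets expose, had 24.4, 32.1, 12.5, 8.29 and 20.4 CPM in coccygeal and 29.8, 12.1, 14.3, 6.79 and 22.7 CPM in jugular blood. GNG11, a G protein subunit abundant in platelets, had 323, 632, 316, 408 and 478 CPM in coccygeal and 459, 319, 402, 388 and 337 CPM in jugular blood. In subject B these 3 genes were higher by 1.33, 1.40 and 0.98 log2 units, while subjects A and C had lower values in coccygeal blood for each of them. Averaged over the subjects, the log2 difference of VWF was 0.17 (95% interval -0.29 to 0.62, limma-voom).

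In coccygeal blood of subject B, 4 of the 5 named genes of the vessel wall and connective tissue list were higher than in its jugular pair. The median of the list was 0.83 log2 units, and 2 of the 5 genes were apart by more than 1 log2 unit. The 5 genes of this list with a name, of 23 symbols, which include genes that blood cells also express, summed to 64.9, 113.9, 63.7, 46.1 and 64.9 CPM in coccygeal and 62.1, 60.9, 58.8, 48.1 and 77.3 CPM in jugular blood. SERPINH1, the chaperone of collagen, had 4.69, 12.5, 3.42, 2.98 and 3.96 CPM in coccygeal and 3.85, 3.46, 3.91, 3.31 and 3.30 CPM in jugular blood. Coccygeal blood of subject B stood above the other 9 libraries, which lay between 2.98 and 4.69 CPM. ACKR3, a scavenging chemokine receptor, was higher in subject B by 1.51 log2 units and TNXB, a tenascin of the extracellular matrix, by 0.83, whereas in the other subjects both differed by 0.22 log2 units or less. PI16, listed among the neutrophil genes, had 2.60, 38.9, 3.08, 1.85 and 3.29 CPM in coccygeal and 1.13, 1.62, 2.02, 2.32 and 2.74 CPM in jugular blood, and so its excess lay in the same library of subject B. CXCL8 and CXCL5, chemokines that attract neutrophils, were higher in that library by 1.28 and 1.35 log2 units. They belong to the immediate early and inflammatory list, of which only 6 of 13 genes were higher in subject B, with a median of -0.01.

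The same library had lower values of monocyte genes. CD14, the co-receptor of lipopolysaccharide on monocytes, had 94.3, 31.8, 77.4, 62.7 and 58.7 CPM in coccygeal and 89.5, 60.3, 61.9, 68.7 and 56.9 CPM in jugular blood. VCAN, a proteoglycan of monocytes, had 383, 159, 413, 219 and 284 CPM in coccygeal and 403, 292, 331, 199 and 321 CPM in jugular blood. In subject B these genes were lower by 0.92 and 0.88 log2 units, and 13 of the 16 genes of the list were lower, with a median of -0.31. The median of the list was 0.02, 0.29, 0.03 and 0.00 in subjects A, C, D and E.

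Neutrophil genes differed most in subject C. TGM3 (chromosome 13, 52793538 to 52836265) had 423, 49.3, 119, 37.9 and 17.95 CPM in the coccygeal libraries of subjects A to E and 553, 72.6, 9.26, 38.2 and 21.8 CPM in the jugular libraries. Subject A was highest in both veins, and subject C alone was higher in coccygeal blood. In jugular blood of subject C kept for 24 h TGM3 stood at 26.7 CPM, and in that of subject A at 108 CPM. STEAP4, a metalloreductase (chromosome 4, 72378038 to 72407341), had 69.3, 11.9, 48.2, 30.9 and 13.5 CPM in coccygeal and 114, 15.9, 5.02, 30.2 and 14.02 CPM in jugular blood. It repeated this pattern, with a difference of 3.23 log2 units in subject C and of -0.72 to 0.03 in the others.

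In subject C all 8 neutrophil genes of the list were higher in coccygeal blood, with a median of 1.15 log2 units, and their sum was 319.5 against 74.7 CPM. MXD1, a partner of MAX, was higher by 1.73 log2 units and BMX by 1.99. IL1B, the cytokine interleukin 1 beta, followed the same subjects. It had 121, 18.7, 77.0, 42.5 and 45.7 CPM in coccygeal and 179, 27.2, 18.1, 42.0 and 39.6 CPM in jugular blood. Here subject C was higher by 2.08 log2 units, and subjects A and B were lower by 0.56 and 0.54. In subjects A and B the median of the neutrophil list was -0.49 and -0.42, and in subjects D and E -0.02 and -0.18.

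**Figure D4:**
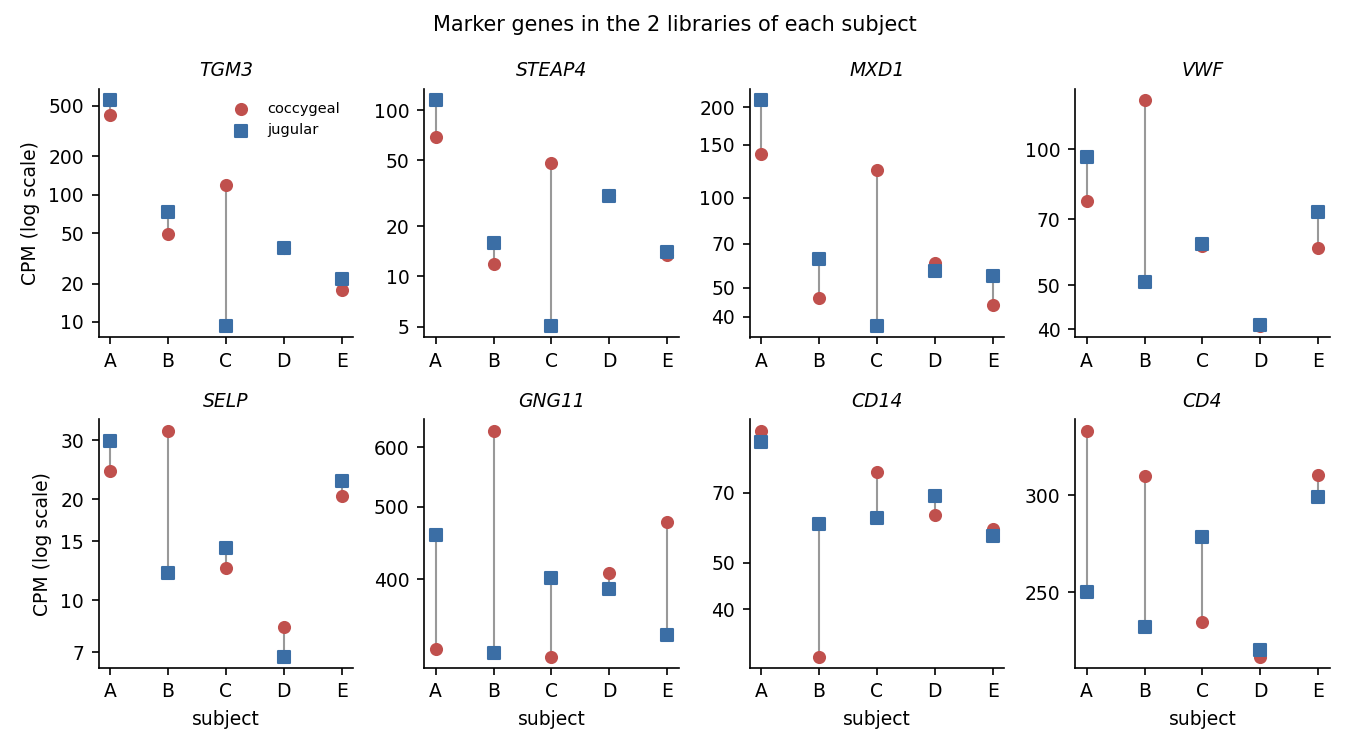
CPM (log scales that differ between panels) of 8 marker genes in the coccygeal library (circle) and the jugular library (square) of each subject, joined by a line. The pairs of TGM3, STEAP4 and MXD1 are far apart in subject C, those of VWF, SELP, GNG11 and CD14 in subject B, and in subject D the widest pair is that of SELP, at 0.28 log2 units.

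T cell genes were higher in coccygeal blood of subjects A and B, by a median of 0.35 and 0.37 log2 units over 16 genes, with 13 and 15 genes higher. In subjects C, D and E the median was -0.15, 0.00 and 0.15. CD4, the co-receptor of helper T cells, had 339, 311, 237, 222 and 312 CPM in coccygeal and 250.3, 234, 277, 225 and 299 CPM in jugular blood. LEF1, a transcription factor of naive T cells, had 214, 217, 175, 121 and 214 CPM in coccygeal and 129, 135, 201, 113 and 194 CPM in jugular blood. Subject C was lower in coccygeal blood for both genes, and the groups overlapped. LEF1 had a log2 fold change of 0.29 over the 5 subjects and, by edgeR, an FDR of 0.9997.

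The other lists are given by the range of their medians over the 5 subjects. The 8 B cell genes had a median between -0.08 and 0.02 log2 units, the 10 interferon response genes between -0.07 and 0.08, and the 11 genes of cytotoxic lymphocytes between -0.12 and 0.09. Stress hormone response genes, among them the glucocorticoid target DDIT4, had a median between -0.10 and 0.16. The 13 immediate early and inflammatory genes above CPM 1, which cells induce when handled or activated, lay between -0.15 and 0.01, although 3 of the 13 were apart by more than 1 log2 unit in subject B. The 21 genes of dividing cells lay between -0.22 and 0.17 with 17 of 21 estimated lower over the 5 subjects, and the 13 ribosomal protein genes between -0.01 and 0.16 with 13 of 13 estimated higher, where 6407 of the 13302 genes were estimated higher. None of these estimates passed the adjustment, and ribosomal protein genes have processed copies among which fragments could have been split. The 7 genes of eosinophils, basophils and mast cells had a median between -0.23 and 0.04. The 5 skeletal muscle genes with a name, CACNA1S, CLCN1, PYGM, COX8B and PFKM, had a median between -0.13 and 0.09, and PKP2, the single skin gene, lay between -0.59 in subject B and 0.19.

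For most genes the means of the 5 subjects spread more than the libraries within a pair. The spread within pairs holds that of tubes and libraries besides that of veins, and each subject mean carries a part of it. The median standard deviation was 0.19 log2 units between the 5 subject means and 0.14 within pairs, and it was larger between subjects for 9708 of the 13302 genes (73.0%). A ratio of mean squares was also taken, in which the variance between subject means is multiplied by 2, the libraries per subject, before it is divided by the variance within pairs. This ratio exceeded 1 for 11815 genes (88.8%) and 10 for 2715 genes, with a median of 3.83. Without a difference between heifers it would lie near 1, so a ratio above 1 does not by itself set heifers above veins.

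The 5 named genes with a mean of at least 10 CPM and the largest ratio of mean squares had ratios between 122 and 187. INSIG1, which holds back sterol synthesis in the endoplasmic reticulum, had 41.8, 38.2, 41.6, 87.0 and 65.6 CPM in coccygeal and 40.2, 42.4, 40.6, 87.4 and 62.6 CPM in jugular blood. CX3CR1, the fractalkine receptor of monocytes and cytotoxic lymphocytes (chromosome 22, 12569452 to 12583576), had 133, 147, 254, 338 and 116 CPM in coccygeal and 152, 158, 249, 339.5 and 126 CPM in jugular blood. Subject D was highest for both genes in either vein, and subject E came next for INSIG1 and was lowest for CX3CR1. ADAM11 had 46.1, 56.5, 54.2, 15.2 and 18.3 CPM in coccygeal and 41.7, 52.8, 61.9, 14.7 and 20.1 CPM in jugular blood, which set subjects D and E below the other 3. AURKC, an aurora kinase, and YBEY, an endoribonuclease, had standard deviations of 0.53 and 0.27 log2 units between subjects against 0.06 and 0.03 within pairs. At the other end, the ratio of mean squares was 0.655 for PI16, 0.601 for RALGAPB, 0.181 for GNG11 and 0.280 for ENSBTAG00000021466, so that these genes varied more between the veins of a subject than between subjects.

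**Figure D5:**
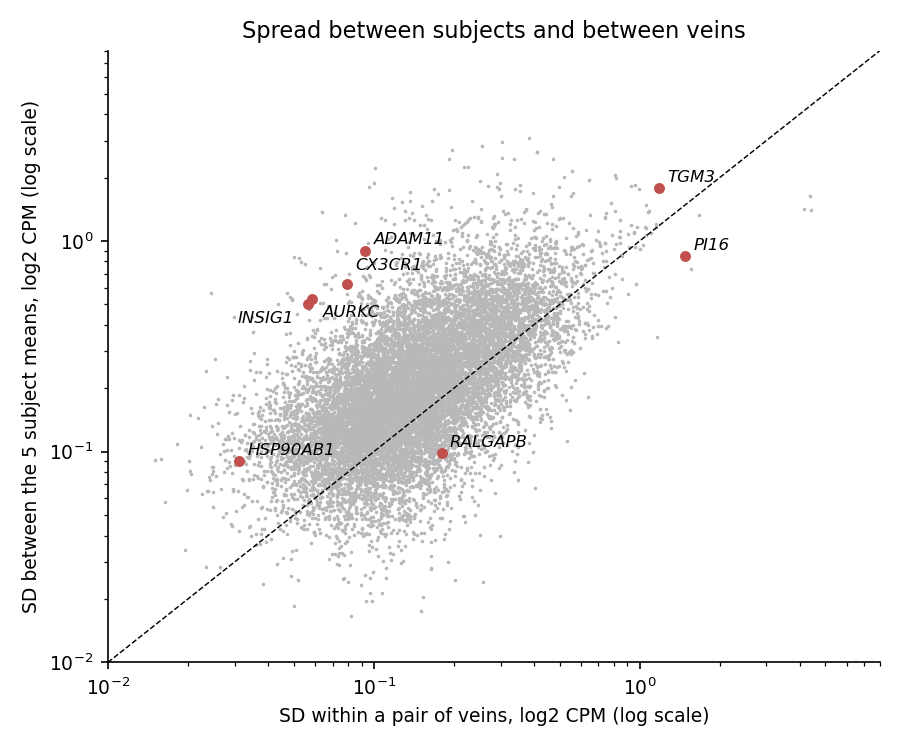
Standard deviation of log2 CPM between the 5 subject means against that within pairs of veins, for the 13302 genes above CPM 1 on log scales. The 9708 genes above the dashed line of equality had a larger standard deviation between subjects than within pairs, and PI16 and RALGAPB lie below it.

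Storage of jugular blood for 24 h gave a yardstick for the size of the vein differences, and both comparisons use the same jugular libraries of 1 h. The median absolute difference over genes above CPM 1 was 0.16, 0.11, 0.19, 0.08 and 0.14 log2 units between the veins in subjects A to E. Between 24 h and 1 h it was 0.21, 0.18, 0.13, 0.20 and 0.19. The vein difference was smaller in 4 of 5 subjects and larger in subject C. The mean was 0.136 ± 0.0408 (SD, n = 5) for the veins and 0.183 ± 0.0337 (SD, n = 5) for storage, a difference of -0.0467 that was within the spread between subjects (two-sided exact permutation test over the signs of the 5 pairs, p = 0.25, with 0.0625 as the smallest p possible). Genes more than 1 log2 unit apart numbered 605, 317, 148, 233 and 346 for storage.

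For the marker lists the values of storage, 24 h minus 1 h, are given beside those of the veins without a test, as the jugular libraries are shared. T cell genes had medians of -1.15, -0.48, -0.60, -0.44 and -0.49 for storage, lower in all 5 subjects. For the veins their medians were 0.35, 0.37, -0.15, 0.00 and 0.15. Of the 16 T cell genes 12, and of the 12 platelet genes 3, took their names from tables chosen on storage for 24 h. Their values for storage are therefore not independent of that choice. Platelet genes had medians of 0.38, 0.67, 0.35, 0.01 and -0.01 for storage and -0.25, 0.85, -0.14, 0.05 and -0.13 for the veins. The 8 clustered histone genes above CPM 1, a list whose names came from tables made on storage, had medians between 0.86 and 1.30 for storage and between -0.16 and 0.16 for the veins.

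Genes below CPM 1 were tested in a fit of edgeR on all 22529 genes with a count, in which 18 of the 9227 had an FDR under 0.05 and an absolute log2 fold change above 0.5 (0.195%). All 18 were higher in coccygeal blood and 0 were lower, and none had a name in the tables used here. In the 5 coccygeal libraries these genes had 199, 2323, 14, 20 and 96 counts in all, and in the jugular libraries 6, 14, 5, 2 and 11. Subject B thus held 87.6% of the coccygeal counts and was the highest library for each of the 18 genes. In jugular blood kept for 24 h the 18 genes had 42 counts over 5 libraries.

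Of edgeR, DESeq2 and limma-voom, only edgeR called any of these genes, and without the subject as a block it called 0. DESeq2 without independent filtering called 0 of the 9227 genes and limma-voom called 0, with 34 and 475 genes at an unadjusted p under 0.05. In edgeR 174 genes were higher (1.89%) and 40 lower (0.434%) at that unadjusted level. Without subject B edgeR called 5 genes, 4 of them higher and 1 lower in coccygeal blood, of which 2 were among the 18. Without subject A it called 10. All 18 kept a higher estimate in coccygeal blood without subject B, 8 of the 18 were higher in 5 of 5 subjects, and 3 had groups that did not overlap. Over all genes below CPM 1, 217 were higher in 5 of 5 subjects (2.35%) and 63 lower (0.683%), and groups did not overlap for 21 that were higher (0.228%) and 3 that were lower (0.0325%).

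The pair of genes with the smallest p shows how few libraries carried these calls. ENSBTAG00000000310 had 37, 272, 0, 4 and 8 counts in the coccygeal libraries of subjects A to E and 0 in each of the jugular libraries. Its coccygeal counts, pooled and scaled to the pooled totals, came to 3.79 CPM. This was 105-fold the level of 3 counts over the pooled jugular libraries, a bound that covers the error of counting alone. Coccygeal blood of subject B held 84.7% of the counts. Its FDR in edgeR was 3.11e-08, and 2.16e-06 without subject B, where 49 coccygeal counts remained. ENSBTAG00000007244 had 14, 188, 1, 2 and 6 counts in coccygeal libraries, where jugular libraries had 1 count in subject A and 0 in the others. Its FDR in edgeR was 3.57e-07, and 0.342 without subject B, where 23 coccygeal counts remained. These genes, and ENSBTAG00000021466 above CPM 1, had their highest value in the coccygeal library of subject B, the library in which the platelet and vessel wall lists were also highest, and the part of other cells in these counts was not tested. In that library the 5 skeletal muscle genes summed to 53.4 CPM, against 48.8 CPM in its jugular pair, and PKP2 stood at 2.66 against 4.06 CPM. Only 5 of 25 skeletal muscle symbols and 1 of 21 skin symbols had a name. The muscle genes also summed to 27.3 to 52.0 CPM in the jugular libraries, so that these values say little about other tissue.

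In the other direction the identifiers with the smallest p did not pass the adjustment. ENSBTAG00000024115 had 0.347, 0.554, 0.683, 0.119 and 0.502 CPM in coccygeal and 0.718, 1.08, 0.783, 0.406 and 1.37 CPM in jugular blood, lower in 5 of 5 subjects with groups that overlapped. ENSBTAG00000012915 was lower in 5 of 5 subjects as well, with 0.258 ± 0.185 CPM in coccygeal and 0.639 ± 0.569 CPM in jugular blood (SD, n = 5), and its FDR in edgeR was 0.9997. Of the 17 named genes below CPM 1, CXCL2, a chemokine for neutrophils, had 0.347, 0.498, 1.30, 0.716 and 0.892 CPM in coccygeal and 0.257, 0.379, 0.587, 0.522 and 0.725 CPM in jugular blood. It was higher in 5 of 5 subjects, and edgeR gave a log2 fold change of 0.57 with an FDR of 0.9997.

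Most genes below CPM 1 held too little for a comparison. Of the 9227 genes, 1507 had a single count in the 10 libraries together and 4483 had fewer than 10. Counts were found in coccygeal blood alone for 1244 genes and in jugular blood alone for 949. Where more than 3 counts were required, the level that a count of 0 allows, 103 genes had counts in coccygeal blood alone and 33 in jugular blood alone. Counts in coccygeal blood of subject B reached 6089 of the genes below CPM 1, against 4558 to 5713 in the other 9 libraries.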

How the data were processed

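The table deposited by the authors held raw fragment counts per Ensembl gene. Per the methods and labels, adapters were trimmed with cutadapt 2.8, read pairs were aligned to ARS-UCD1.2 with HISAT2 2.2.0, alignments were filtered with SAMtools 1.10, duplicates were removed with biobambam2, and fragments over exons were counted with featureCounts of Subread 2.0.1 without strand. Fragments of overlapping or antisense genes therefore cannot be told apart. Of 30 columns of counts 15 were used, and the other 15, which were not tied to a sample, were not used. The series also holds jugular blood of other storage times, which is not part of this comparison. Library identifiers were tied to samples and to heifers through the authors' supplementary code, and the pairing is that of samples from the same animal.

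Calculations used R 4.3.3, edgeR 4.0.16 (quasi-likelihood test, library totals as the only scaling), DESeq2 1.42.0 (Wald test) and limma 3.58.1 (voom), with the subject as a block and Benjamini-Hochberg adjustment. Totals ranged from 12412619 to 19492274 counts. Because of the block, p-values set the vein difference against its spread over the pairs of 5 heifers, not against the spread between heifers. The study's further filter on FPKM was not applied. Genes below CPM 1 were tested with edgeR on all genes with a count. The variance between subject means and within pairs used log2 CPM with a prior count of 2. The fits of edgeR, DESeq2 and limma-voom were tested on simulated counts. Alternatives were other scaling, filters, tools, fold thresholds, prior counts and dispersion settings, no block, and each subject left out.

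Symbols came from the study's supplementary tables (1738 names), and 0 identifiers matched the reference table given. Named genes were the 5 with the smallest edgeR p in each direction, the 2 identifiers below CPM 1 with the smallest p in each direction, the largest difference in each direction within each subject, members of 17 lists, the 5 with the largest ratio of mean squares, the 5 with the highest CPM, and the identifier that differed in most subjects. NOL10 was added after its values were seen. The members and lists were chosen with earlier results of these data known, and 55 of the 173 list genes took their names from tables chosen on storage for 24 h.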

Additional observations from a re-analysis of the deposited data

Results flagged for a closer look

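In 104 groups of 5 libraries the highest or lowest value was tested against the others by its gap, as a share of the range of the group (Dixon's critical value 0.71), and 17 groups held a value apart. Chance alone gives about 1 in 20 in unselected, independent groups, a rate that does not apply here, since many of these genes were chosen for extreme values and all groups share the same libraries. In coccygeal blood of subject B these were the platelet list (1360.4 CPM, next 845), the vessel wall list (113.9 CPM, next 64.9), PI16 (38.9 CPM), ENSBTAG00000021466 (324 CPM), ENSBTAG00000000310 (15.1 CPM), ENSBTAG00000007244 (10.4 CPM) and the counts in the 18 called genes below CPM 1 (2323). In subject A, TGM3 was apart in both veins (423 CPM in coccygeal and 553 CPM in jugular blood), and in its jugular blood the neutrophil list (923 CPM, next 179), BMX (20.9 CPM) and the immediate early and inflammatory list (643.5 CPM) were apart as well. The other values were TBC1D16 in coccygeal blood of subject C (4.51 CPM), MSN in coccygeal blood of subject D (1148 CPM), ENSBTAG00000012915 in jugular blood of subject C (1.63 CPM), KCNG1 in jugular blood of subject B (5.52 CPM) and ENSBTAG00000021466 in jugular blood of subject E (2.26 CPM).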

How the results depend on the processing

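For genes above CPM 1 the number called was 0 in the reported test and in all 18 alternatives, and without the replicate block 22 genes had an unadjusted p under 0.05 in edgeR and 0 were called. The number at that unadjusted level was 111 without subject A and 620 without subject C. The 18 calls below CPM 1 became 0 in DESeq2 alone without independent filtering, 0 in edgeR and DESeq2 both, 0 in limma-voom and 0 without the replicate block (228 at an unadjusted p under 0.05 in edgeR), which changed no other call than these. They became 11 with at least 10 counts, 8 with a count in 5 or more libraries, 28 with estimation that is not robust and 10 with the newer fitting, and stayed 18 with TMM factors. Leaving out a subject gave 5 (without B) to 23 (without C). The cause of these shifts was not tested. With a prior count of 5 the genes apart became 23 for subject D and 54 for subject E, and 44, 158, 128, 3 and 20 in subjects A to E where all 10 libraries had to exceed CPM 1, a filter that removes low genes. The difference between veins and storage kept its direction, between -0.0733 without subject C and -0.0282 without subject D. Means over subjects of the list medians were recomputed under alternatives added after seeing the data. The sign of 9 of the 17 lists changed when some subject was left out, and that of 0 with other prior counts or TMM factors. Without subject B the mean went from 0.08 to -0.12 for platelets, from 0.08 to -0.06 for erythroid, from 0.15 to -0.02 for vessel wall and from -0.09 to 0.03 for skin genes. Without subject C it went from 0.01 to -0.28 for neutrophil genes and from 0.01 to -0.07 for monocyte genes. The other 3, skeletal muscle, stress hormone and interferon, had means over all subjects of -0.01, 0.02 and 0.00. Depth limits the genes below CPM 1, of which 4483 had fewer than 10 counts.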

Other observations

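The 95% interval of the vein difference reached past 1 log2 unit for 7 of the 165 list genes (4.24%), against 124 of the 13302 genes above CPM 1 (0.932%). The list genes were chosen with earlier results of these data known. The 7 were BMX, STEAP4, SERPINH1, TGM3, FFAR2, GATA2 and PI16, and each of them had a library pair apart by more than 1 log2 unit in subject A, B, C or E.

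Subject C had the lowest share of genes that were higher in coccygeal blood, 39.4% of the 13302 genes above CPM 1, and its median difference over all genes was -0.07 log2 units. Subject C was also the only subject in which the veins differed more than 24 h of storage did, with a median absolute difference of 0.19 against 0.13 log2 units.

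GZMB, the granzyme of cytotoxic lymphocytes, was lower in coccygeal blood of subject B by a log2 difference of -1.09, and KLF15, a transcription factor that glucocorticoids induce, by -1.28. GADD45G, a stress-induced growth arrest gene, and AXL, a receptor tyrosine kinase of macrophages, had differences of 1.13 and 1.07 log2 units in the same subject. BCL11B, a transcription factor of T cells, had 18.1 CPM in jugular and 35.4 CPM in coccygeal blood of subject A, and 31.7 and 36.2 CPM in subject B.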
